A study of Mus musculus with 2 samples.

Results

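Basophils of a mouse brain tumour were described from 2 droplet libraries of single-cell RNA, replicates 1 and 2, which form 1 group. A barcode was taken as a basophil when it held at least 200 genes, at most 15% mitochondrial UMIs (unique molecular identifiers, each standing for a captured RNA molecule) and Nras below 1000 CPM (UMIs of a gene per 1000000 UMIs). It also had to hold at least 1 UMI of Mcpt8 and at least 2 UMIs of Hdc and Cyp11a1 together, fewer than 20 UMIs of C1qa, C1qb and C1qc together, and 0 of Cd3e. The members were chosen by these measured values, which left 138 cells, 75 in replicate 1 and 63 in replicate 2, of 3186 barcodes kept (1740 and 1446) and 4970 deposited (2704 and 2266). They were set against 674 other immune cells (350 and 324), which passed the same limits on genes, mitochondrial UMIs and Nras, did not pass the basophil gate and held at least 1 UMI of the leukocyte phosphatase gene Ptprc. The tumours are gliomas of a genetically engineered mouse model that expresses mutant IDH1 (mIDH1), on the C57BL/6 strain, taken at the symptomatic stage and labelled as tumour cells. The labels give no tumour without the mutation, no other time and no treatment, give no age and no other allele of the model, and do not say whether the libraries come from separate animals.

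Basophils are rare granulocytes of the blood that leave the bone marrow mature. They carry the high-affinity receptor for immunoglobulin E, store histamine made by the decarboxylase Hdc, and in mice contain the protease mast cell protease 8 (Mcpt8). Interleukin 3 expands them, and when stimulated they are a known source of interleukin 4, which acts on T cells and macrophages. Mast cells are related cells of the tissues that share the immunoglobulin E receptor and histamine, and differ in the receptor Kit and in their chymases and tryptases.

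The label was checked against markers of basophils and of the cell types nearest to them. Of the 15 basophil markers, Mcpt8, Hdc and Cyp11a1 belong to the gate, and Ccl3, Ccl4, Osm and Gzmb are genes with which the cells were proposed, so the levels of these genes are no check. The 8 markers not used in this way (Fcer1a, Ms4a2, Cd200r3, Il3ra, Gata2, Cpa3, Slc18a2 and Itga2) all had UMIs in the 138 cells. They were still chosen with earlier results of these data known, so they are not an independent check. Some of them, such as Fcer1a, Gata2 and Cpa3, are shared with mast cells and cannot tell the 2 cell types apart. Summed, these 8 stood at 5092 and 3756 CPM in basophils of replicates 1 and 2, against 123 and 56.0 CPM in the other immune cells. Without the 4 members with mast cell proteases described next, the sums in basophils were 3843 and 3505 CPM. Of the 138 cells, 137 held a UMI of Cd200r3, an activating receptor, or of the transcription factor Gata2, neither of which the gate used. The 137 include cells with mast cell proteases, so this count does not tell basophils from mast cells. Eosinophil granule genes (Epx, Prg2, Prg3) had 0 UMIs, as did the neutrophil genes Ly6g, Ltf and Csf3r, the monocyte gene Chil3 and the natural killer cell genes Ncr1 and Klrb1c. Other members of these lists had UMIs. Eosinophil markers summed to 49.0 and 64.6 CPM in basophils, against 14.5 and 18.7 CPM in the other immune cells. Neutrophil markers summed to 245 and 420 CPM in basophils, against 5008 and 4335 CPM in the other immune cells. For natural killer and innate lymphoid markers the sums were 98.0 and 140 CPM in basophils, against 173 and 107 CPM in the other immune cells. Macrophage markers summed to 337 and 204 CPM in basophils, against 59995 and 60222 CPM in the other immune cells. Monocyte markers summed to 1964 and 2073 CPM in basophils, against 1419 and 1550 CPM in the other immune cells, and 1124 UMIs of Plac8 made up most of the basophil value.

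The exception was 4 cells, 3 in replicate 1 and 1 in replicate 2, that passed the gate and also held the proteases of mast cells. These 4 cells carried all 6829 UMIs of Mcpt2 found among the members, all 1528 of Mcpt1, all 702 of Cma1, all 291 of Tpsb2 and all 23 of Kit, while the other 134 cells had 0 of each. Their own totals were 24839, 23989 and 7091 UMIs in replicate 1 and 9983 UMIs in replicate 2, which is 11.3% of all UMIs of the members. They held 2 UMIs of Ccl3, 0 of Ccl4 and 2 of Osm, against 6534, 10094 and 1445 in the other 134 cells. They also held 501 UMIs of Cpa3, a carboxypeptidase of mast cells and basophils, against 171 in the other 134 cells. The 4 cells held all of the defining mast cell proteases, so results in which they hold most of the UMIs are given with and without them, and their part in the other results was not tested beyond the recount without them. The other immune cells of replicate 1 also held Mcpt1 and Mcpt2 (1024 and 797 UMIs), and those of replicate 2 held 0.

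**Figure D1:**
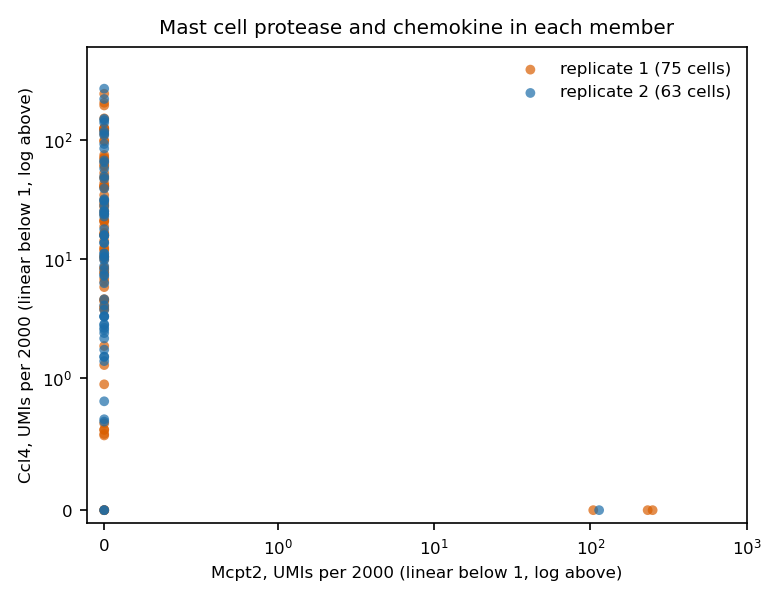
UMIs per 2000 of the chemokine Ccl4 (vertical) against the mast cell protease Mcpt2 (horizontal) in each of the 138 members, on axes with a linear part below 1 and a log scale above, coloured by replicate. The 4 cells with Mcpt2 lie at 0 on the Ccl4 axis, while 129 of the other 134 cells lie above 0.

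The 138 cells held 584759 UMIs in all, with a median of 3220.5 UMIs and 1166.5 genes per cell, against a median of 8781.5 UMIs in the other immune cells. A count of 0 over all members allows a level of up to 5.13 CPM (3 UMIs of the total, counting error only). No member's barcode occurred in the other library, although 10 barcodes did occur in both. Each member held at least 14 UMIs of the nuclear RNA Malat1. Only 1 member was called a doublet by scrublet, a tool that marks barcodes that hold 2 cells. Over 3 times the median UMIs were held by 7 members, 3 of them with mast cell proteases. These 7 members carried 23.5% of all UMIs of the members, so they weigh heavily in the summed levels below.

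At the edge of the gate, 23 members held exactly 1 UMI of Mcpt8, with a median of 19 UMIs of Hdc and Cyp11a1. Just outside it, 58 barcodes with 0 UMIs of Mcpt8 passed every other limit, with a median of 9 UMIs of Hdc and Cyp11a1, and 30 of them held Cd200r3 or Gata2. A further 6 barcodes with Mcpt8 held fewer than 2 UMIs of Hdc and Cyp11a1, 4 held 20 or more C1q UMIs and 5 had Nras at or above 1000 CPM. Basophils made up 17.6% of the immune cells in replicate 1 (75 of 425, exact 95% binomial interval 14.1 to 21.6) and 16.3% in replicate 2 (63 of 387, 12.7 to 20.3), a mean of 17% ± 0.967 (SD, n = 2). Of all barcodes kept they were 4.31% and 4.36%. The gate asked a Ptprc UMI of the other cells and not of the members, and 88 of the 138 members had none. With a Ptprc UMI asked of both, the shares were 6.17% (23 of 373) and 7.69% (27 of 351).

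UMIs were summed per library and class and compared between basophils and the other immune cells, with the library as a block, by edgeR's quasi-likelihood test with Benjamini-Hochberg adjustment over all genes tested. A gene is said to have risen or fallen in basophils where its adjusted p was under 0.05 and its log2 fold change at least 1 in size. Of 9334 genes tested, 900 rose (9.64%) and 974 fell (10.4%) in basophils, 20.1% in all. Counts for the gene lists below, against the other immune cells, are to be read beside these shares. The median log2 fold change over all genes was -0.21, and -0.44 as a plain ratio of CPM, so values near 0 are not a sign of equal levels. The gate genes and the markers Ccl3, Ccl4, Osm and Gzmb, with which the cells were proposed, are described without a test. Without the 4 cells with mast cell proteases 1005 of 9191 genes rose and 1211 fell. With DESeq2 404 genes fell, against the mean of 4 gated classes of other immune cells 624, and without the 7 largest members 1818. All p-values rest on 2 libraries that may be technical, and genes that mark basophils go with the gate genes by cell identity. Every level below is CPM of the summed UMIs, replicate 1 before replicate 2. A value with ± alone in parentheses is the log2 fold change of basophils over the other immune cells with its SE.

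The gate genes themselves differed by the construction of the classes. Mcpt8 stood at 3598 and 2827 CPM in basophils, against 27.4 and 2.30 CPM in the other immune cells. Hdc, which makes histamine, was at 5262 and 5757 CPM in basophils, against 92.1 and 49.1 CPM in the other immune cells. Cyp11a1, which in steroid-making tissues converts cholesterol to pregnenolone, was at 1781 and 1944 CPM in basophils, against 21.7 and 11.8 CPM in the other immune cells. Neither replicate of the other immune cells came near the basophil levels.

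Transcription factors of the lineage rose in 8 of 21 tested members and fell in 4, against 9.64% and 10.4% of all genes. Their median log2 fold change was 0.69. Gata2, a factor needed for basophil and mast cell differentiation, stood at 1065 and 972 CPM in basophils, against 17 and 6.32 CPM in the other immune cells (log2 fold change 6.83 ± 0.29 SE, adjusted p = 1.25e-06). Gata1 (33 UMIs in basophils against 2 in the other immune cells) and Nfil3 (3.26 ± 0.19) also rose. So did the granulocyte factors Cebpa (at 386 and 355 CPM in basophils against 112 and 125 CPM in other immune cells) and Cebpb (at 2752 and 2306 CPM in basophils against 858 and 795 CPM in other immune cells). Mitf, a factor of mast cells, was at 13.1 and 3.59 CPM in basophils against 20.4 and 19.5 CPM in other immune cells, and its 5 UMIs in basophils all lay in the 4 cells with mast cell proteases. The macrophage factor Maf (0 UMIs in basophils, at least 22.6-fold lower) fell, as did the monocyte and dendritic cell factor Irf8 (at 42.5 and 143 CPM in basophils against 579.7 and 561 CPM in other immune cells). Spi1, a factor of all myeloid cells, was at 454 and 305 CPM in basophils against 520.0 and 456 CPM in other immune cells and was not called.

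Receptors for immunoglobulins split by class. Fcer1a (ENSMUSG00000005339, chromosome 1, 173221284 to 173227214, minus strand; GRCm38), the immunoglobulin E-binding chain, was at 477 and 323 CPM in basophils, against 7.23 and 4.31 CPM in the other immune cells (log2 fold change 6.42 ± 0.23 SE, adjusted p = 5.94e-07). Without the 4 cells with mast cell proteases it was at 312 and 279 CPM in basophils (log2 fold change 6.02 ± 0.31, adjusted p = 1.62e-10). Ms4a2, the signal-amplifying chain of the same receptor, was at 356 and 359 CPM in basophils against 9.43 and 3.73 CPM in other immune cells (6.10 ± 0.30). The signalling chain Fcer1g, which macrophages also use, was at 4151 and 3444 CPM in basophils against 3802 and 3609 CPM in other immune cells and was not called. The adaptors Lat (1.95 ± 0.31) and Lat2 (2.67 ± 0.15), which carry the signal of the receptor, rose, and Lat2 reached 1157 and 986 CPM in basophils. Receptors for immunoglobulin G fell: Fcgr1 was at 19.6 and 0 CPM in basophils against 525 and 533 CPM in other immune cells, Fcgr4 at 22.9 and 0 CPM in basophils against 463 and 458 CPM in other immune cells and the inhibitory Fcgr2b at 94.8 and 104 CPM in basophils against 806 and 863 CPM in other immune cells. Fcgr3 was at 556 and 423 CPM in basophils against 920.2 and 931 CPM in other immune cells and was not called. In all, 5 of 17 tested genes of this list rose and 5 fell. Without the 4 cells, 4 rose and 4 fell, since the kinases Btk (higher with them) and Lyn (lower with them) were then not called.

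The stretches before the starts of Fcer1a, Ms4a2 and Cd200r3, genes that rose together with Gata2, and of the cytokine genes Il4 and Il6 are shown because the results on identity and on cytokines turn on these 5 genes. They are the 250 bases before the most upstream RefSeq start (GRCm38.p6): Fcer1a chr1:173227230-173227479, minus strand; Ms4a2 chr19:11623720-11623969, minus strand; Cd200r3 chr16:44943428-44943677, plus strand; Il4 chr11:53618666-53618915, minus strand; and Il6 chr5:30012864-30013113, plus strand. Capitals mark the letters AGATAA and TGATAA on either strand (as TTATCT and TTATCA when they lie on the other strand). These are some of the forms that GATA factors bind, and other forms were not marked or counted.
Fcer1a: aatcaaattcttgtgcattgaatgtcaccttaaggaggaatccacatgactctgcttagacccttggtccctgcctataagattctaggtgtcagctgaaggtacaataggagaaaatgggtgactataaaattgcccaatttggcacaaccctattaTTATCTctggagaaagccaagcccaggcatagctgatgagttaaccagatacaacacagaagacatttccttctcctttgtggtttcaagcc
Ms4a2: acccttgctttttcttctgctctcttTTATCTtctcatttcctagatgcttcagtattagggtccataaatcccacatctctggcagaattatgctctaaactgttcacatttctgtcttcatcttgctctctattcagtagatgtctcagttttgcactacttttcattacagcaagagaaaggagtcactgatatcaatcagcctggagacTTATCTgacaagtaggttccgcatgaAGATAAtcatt
Cd200r3: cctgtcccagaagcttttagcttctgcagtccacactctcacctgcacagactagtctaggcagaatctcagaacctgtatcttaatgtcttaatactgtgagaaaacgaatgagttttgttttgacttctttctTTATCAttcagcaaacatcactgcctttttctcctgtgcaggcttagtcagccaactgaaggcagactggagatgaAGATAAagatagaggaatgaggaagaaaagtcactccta
Il4: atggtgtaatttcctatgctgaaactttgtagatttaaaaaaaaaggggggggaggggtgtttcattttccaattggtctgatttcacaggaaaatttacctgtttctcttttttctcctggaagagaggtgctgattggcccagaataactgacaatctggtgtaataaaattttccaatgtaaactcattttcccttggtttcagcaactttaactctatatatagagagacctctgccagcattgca
Il6: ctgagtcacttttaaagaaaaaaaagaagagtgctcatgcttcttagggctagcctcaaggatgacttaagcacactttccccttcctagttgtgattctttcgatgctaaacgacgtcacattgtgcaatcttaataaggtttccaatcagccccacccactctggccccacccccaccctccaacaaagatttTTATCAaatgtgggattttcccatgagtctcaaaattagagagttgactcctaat
Ms4a2 held 3 matches, Cd200r3 held 2, Fcer1a and Il6 held 1 each and Il4 held 0. Of 27018 promoter windows of this length, 16.9% held a match. Of the 15 basophil markers 13 had a window, and 5 of these held a match. Among the listed genes that rose, 25 of 94 windows held one (26.6%), and among those that fell, 12 of 81 (14.8%). A match in these letters is a description of the sequence and does not show binding.

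Receptors for growth factors and cytokines went both ways, with 10 of 33 tested members higher and 17 lower. Il3ra, the receptor chain specific to interleukin 3, was at 137 and 154 CPM in basophils, against 33.0 and 26.7 CPM in the other immune cells (log2 fold change 2.60 ± 0.25 SE, adjusted p = 0.000132). Csf2rb, the signalling chain shared by the receptors for interleukin 3, interleukin 5 and GM-CSF, was at 1778 and 1862 CPM in basophils, against 234 and 205 CPM in the other immune cells (log2 fold change 3.36 ± 0.14 SE, adjusted p = 1.25e-06). Its close copy Csf2rb2, which in mice serves interleukin 3 alone, was at 739 and 760.5 CPM in basophils against 78.6 and 80.7 CPM in other immune cells (3.54 ± 0.17), and reads may be split between the copies. Both chains were several times above the other immune cells in each replicate, whereas Csf2ra, the chain specific to GM-CSF, fell (at 62.1 and 43.0 CPM in basophils against 237 and 227 CPM in other immune cells).

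The receptor for interleukin 18 rose in both of its chains, Il18r1 (at 193 and 226 CPM in basophils against 11.6 and 15.2 CPM in other immune cells; 4.27 ± 0.24) and Il18rap (at 278 and 287 CPM in basophils against 13.5 and 12.3 CPM in other immune cells; 4.75 ± 0.22). Il1rl1, the receptor for the alarmin interleukin 33, was at 173 and 89.7 CPM in basophils, against 7.54 and 5.74 CPM in the other immune cells (log2 fold change 4.58 ± 0.33 SE, adjusted p = 2.32e-05). Without the 4 cells with mast cell proteases Il1rl1 was lower, at 112 and 55.8 CPM in basophils (log2 fold change 3.96 ± 0.41, adjusted p = 1.19e-06). Il1r2, a decoy receptor for interleukin 1, rose too (at 88.2 and 251 CPM in basophils against 28.3 and 14.1 CPM in other immune cells). Kit, the receptor for stem cell factor, passed the test (log2 fold change 2.41 ± 0.69 SE, adjusted p = 0.0368) with all of its 23 UMIs in the 4 cells, and stood at 0 in the other 134.

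The receptor for G-CSF, Csf3r, had 0 of 584759 UMIs in basophils, against 133 and 127 CPM in the other immune cells, and was at least 25.3-fold lower. Csf1r, the receptor of macrophage growth factors, fell, with 1 UMI in basophils against 911 and 965 CPM in the other immune cells. Both chains of the interleukin 6 receptor were at 0 UMIs in basophils: Il6ra was at least 13.6-fold lower and Il6st, which also serves oncostatin M, was at least 7.81-fold lower. Il4ra, the receptor for interleukin 4, fell (at 45.8 and 21.5 CPM in basophils against 231 and 203 CPM in other immune cells), as did Il13ra1 (at 3.27 and 3.59 CPM in basophils against 54.4 and 58.0 CPM in other immune cells). Ifngr1 (at 150.3 and 158 CPM in basophils against 420.3 and 471 CPM in other immune cells) and Ifnar1 (at 19.6 and 17.9 CPM in basophils against 76.7 and 73.5 CPM in other immune cells), chains of interferon receptors, and Tgfbr1 (at 22.9 and 10.8 CPM in basophils against 153 and 146 CPM in other immune cells), a receptor of transforming growth factor beta, fell.

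Receptors for chemoattractants rose in 10 of 24 tested members and fell in 8. Cxcr2, which binds neutrophil-attracting chemokines, was at 235 and 409 CPM in basophils, against 30.2 and 27.6 CPM in the other immune cells (log2 fold change 3.75 ± 0.25 SE, adjusted p = 1.49e-05). Cxcr4, the receptor for Cxcl12, was at 291 and 326 CPM in basophils against 29.6 and 31.6 CPM in other immune cells (3.64 ± 0.20), and Ccr1 at 409 and 456 CPM in basophils against 80.8 and 93.0 CPM in other immune cells (2.62 ± 0.18). Ccr3, a receptor of eosinophils and basophils, was at 32.7 and 39.5 CPM in basophils against 0.314 and 0.862 CPM in other immune cells (6.09 ± 0.82), with 21 UMIs in basophils. The leukotriene B4 receptor Ltb4r1 (2.58 ± 0.24), the complement receptor C5ar1 (1.29 ± 0.18), the adenosine receptor Adora2b (4.08 ± 0.32) and the sphingosine phosphate receptor S1pr4 (3.47 ± 0.28) rose. The monocyte receptor Ccr2 (at 58.8 and 25.1 CPM in basophils against 166 and 179 CPM in other immune cells) and Cx3cr1 (at 65.4 and 3.59 CPM in basophils against 821 and 908 CPM in other immune cells) fell, and 19 of the 21 Cx3cr1 UMIs in the members lay in the 4 cells with mast cell proteases. Without these cells Cx3cr1 had 2 UMIs in basophils and was still called lower. Cysltr1, a receptor for cysteinyl leukotrienes, had 0 UMIs in basophils and was at least 8.81-fold lower. Ptgdr2, a prostaglandin D2 receptor used to mark human basophils, had 0 UMIs in both classes.

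Among surface receptors, 9 of 34 tested members rose and 16 fell. Cd200r3 (ENSMUSG00000036172, chromosome 16, 44943678 to 44981380, plus strand) was at 1203 and 1166 CPM in basophils, against 16.3 and 10.9 CPM in the other immune cells (log2 fold change 6.76 ± 0.21 SE, adjusted p = 3.55e-07). Its inhibitory relative Cd200r1 (3.76 ± 0.29) rose too, at 154 and 136 CPM in basophils against 12.6 and 13.8 CPM in other immune cells. Cd69, an early activation receptor, was at 752 and 649 CPM in basophils against 39.9 and 56.0 CPM in other immune cells (4.19 ± 0.23). The tetraspanin Cd9 was at 4670.2 and 4631 CPM in basophils against 705 and 697 CPM in other immune cells (3.04 ± 0.11), and the degranulation marker Cd63 at 2448 and 2066 CPM in basophils against 1499.8 and 1489.9 CPM in other immune cells, which was not called. Toll-like receptors fell in 4 of the 5 members tested, among them Tlr2 (at 6.54 and 0 CPM in basophils against 189.9 and 198 CPM in other immune cells), Tlr4 (at least 4.24-fold lower) and Tlr7 (at least 9.65-fold lower).

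Adhesion molecules rose in 8 of 18 tested members and fell in 1. Itga2, the integrin chain that carries the DX5 epitope used to sort mouse basophils, was at 85.0 and 89.7 CPM in basophils against 1.26 and 1.72 CPM in other immune cells (6.11 ± 0.47). Itga2b, known from platelets, was at 275 and 330.0 CPM in basophils against 5.34 and 3.73 CPM in other immune cells (6.35 ± 0.27), while the platelet genes Pf4 and Ppbp had 0 UMIs in basophils. Itgb7 (2.73 ± 0.18) also rose, and the dendritic cell integrin Itgax fell (1 UMI in basophils against 217 in the other immune cells).

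Il4 was the cytokine with the largest tested ratio that had UMIs in both classes. Il4 (ENSMUSG00000000869, chromosome 11, 53602982 to 53618669, minus strand) was at 1013 and 1459.9 CPM in basophils, against 5.66 and 3.73 CPM in the other immune cells (log2 fold change 8.32 ± 0.27 SE, adjusted p = 4.83e-07). It had 717 UMIs in the members, 715 of them in the 134 cells without mast cell proteases. Il6 (ENSMUSG00000025746, chromosome 5, 30013114 to 30019981, plus strand), an inflammatory cytokine, was at 601 and 660.0 CPM in basophils, against 9.12 and 10.1 CPM in the other immune cells (log2 fold change 6.34 ± 0.21 SE, adjusted p = 5.32e-07). In each library the summed levels of both cytokines stood far above those of the other immune cells. Not every member held them: of the 134 cells without mast cell proteases, 72 had a UMI of Il4 and 86 a UMI of Il6. Il13, the neighbour of Il4 in the genome and a related type 2 cytokine, had 32 UMIs in 11 basophils and 0 in the other immune cells, and was at least 122-fold higher. It was not called with DESeq2. Il15 was at 222 and 222 CPM in basophils against 18.9 and 12.6 CPM in other immune cells (4.14 ± 0.24).

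Il1b was at 1637 and 1525 CPM in basophils, against 439 and 429 CPM in the other immune cells (log2 fold change 2.17 ± 0.14 SE, adjusted p = 1.03e-05). It was spread unevenly over the members, with UMIs in 49 cells and 40.7% of them in 5 cells. Il5, Il9, Il25 and Il31 had 0 UMIs in basophils, and Tnf was at 16.3 and 28.7 CPM in basophils against 50.9 and 39.1 CPM in other immune cells and was not called. Osm, encoding oncostatin M and used to propose the cells, was at 2278 and 2690.3 CPM in basophils, against 60.7 and 43.9 CPM in the other immune cells. Of the list of interleukins and other cytokines, 5 of 24 tested members rose (Il1b, Il4, Il6, Il13 and Il15) and 5 fell. Those that fell were Il1a (at least 11.9-fold lower), Il1rn, Il18, Il18bp and Tnfsf13b (at least 10.2-fold lower). Of the list's 46 measured members, 23 had 0 UMIs in basophils. Without the 4 cells with mast cell proteases, Tnfsf14 rose too and Ifng fell, with 0 UMIs in basophils.

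**Figure D2:**
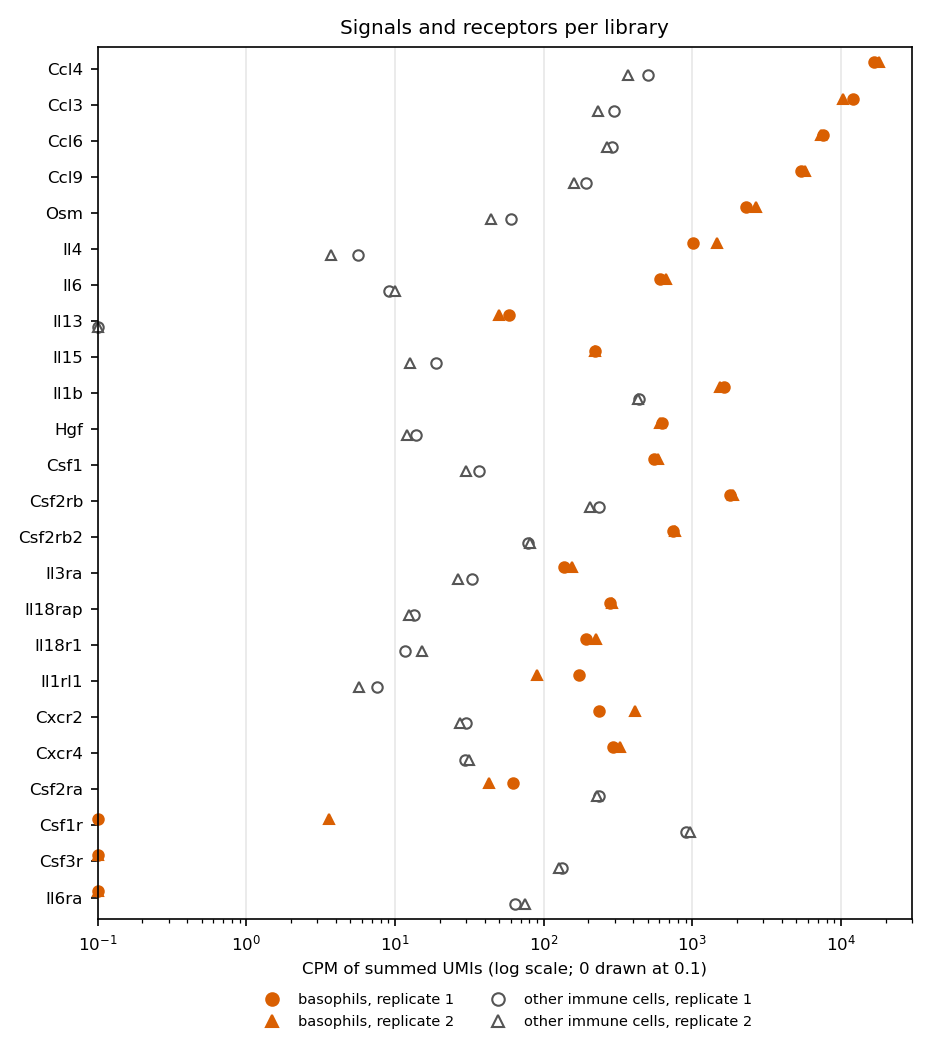
Level of 24 signals and receptors (CPM of summed UMIs on a log axis, with 0 drawn at the left edge) in basophils (filled, drawn above) and in the other immune cells (open, drawn below) of replicates 1 and 2. Il4, Il6 and Hgf lie at 600 CPM or more in both basophil sums and below 15 CPM in both sums of the other immune cells, while Csf3r and Il6ra are at 0 in both basophil sums and Csf1r in 1 of them.

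Chemokines made up the most abundant of the signals. Ccl4, an attractant of monocytes and T cells, stood at 16658 and 17925 CPM in basophils, against 506 and 370.2 CPM in the other immune cells. Its neighbour Ccl3 was at 12004 and 10269.8 CPM in basophils, against 296 and 233 CPM in the other immune cells. Both were used to propose the cells and are not tested. Ccl6 and Ccl9, mouse chemokines that bind Ccr1, were not so used: Ccl6 was at 7510.3 and 7346 CPM in basophils, against 286 and 266 CPM in the other immune cells (log2 fold change 5.06 ± 0.11 SE, adjusted p = 5.86e-08) and Ccl9 at 5373 and 5682 CPM in basophils, against 191 and 161 CPM in the other immune cells (log2 fold change 5.29 ± 0.14 SE, adjusted p = 1.15e-07). Ccl6 and Ccl9 each stood more than 10-fold higher in both basophil sums than in either sum of the other immune cells.

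Of 18 tested chemokines 4 rose (Ccl6, Ccl9, Ccl17 and Cxcl2) and 11 fell, with a median log2 fold change of -3.34 (-2.41 with genes at 0 UMIs in basophils put at their bound). Those that fell included Ccl12 (at 22.9 and 3.59 CPM in basophils against 846 and 908 CPM in other immune cells), Cxcl13 (at 3.27 and 3.59 CPM in basophils against 961 and 1077 CPM in other immune cells), Cxcl16 (at 29.4 and 46.6 CPM in basophils against 445 and 414 CPM in other immune cells) and Ccl2. Ccl2 was at 131 and 7.17 CPM in basophils, and 39 of its 42 UMIs lay in the 4 cells with mast cell proteases. Without these cells Ccl2 was at 12 and 0 CPM in basophils, against 526 and 532 CPM in the other immune cells. Ccl8 had 0 UMIs and was at least 20.9-fold lower. Cxcl10 had 175 UMIs in replicate 1 and 0 in replicate 2, with 173 in a single cell, and was not called (log2 fold change -1.26 ± 0.91 SE, adjusted p = 0.36).

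Growth factors rose in 7 of 22 tested members and fell in 5. Hgf (ENSMUSG00000028864, chromosome 5, 16553495 to 16620152, plus strand), hepatocyte growth factor, the ligand of Met, was at 621 and 609.8 CPM in basophils, against 13.8 and 12.1 CPM in the other immune cells (log2 fold change 5.88 ± 0.21 SE, adjusted p = 5.82e-07). Csf1 (ENSMUSG00000014599, chromosome 3, 107741048 to 107760469, minus strand), the growth factor of macrophages, was at 549 and 585 CPM in basophils, against 36.5 and 30.2 CPM in the other immune cells (log2 fold change 4.40 ± 0.20 SE, adjusted p = 1.50e-06). Both held close to the same level in the 2 basophil sums. Metrnl (2.41 ± 0.19), Inhba (2.64 ± 0.35), Fgl2 (1.30 ± 0.20), Flt3l (2.30 ± 0.60) and Vegfa (at 85.0 and 86.1 CPM in basophils against 38 and 19.2 CPM in other immune cells; 1.93 ± 0.34) rose as well. Inhba UMIs lay to 83.7% in 5 cells. Vegfa had 50 UMIs in basophils, 60% of them in 5 cells. It rose against each of the 3 classes gated below. In the other immune cells outside those classes, Vegfa was at 158 and 60.9 CPM. In barcodes with Nras at or above 1000 CPM it was at 84.3 and 93.1 CPM, so the level was not particular to basophils. Tgfb1 was at 353 and 502 CPM in basophils against 276 and 296 CPM in other immune cells and was not called. The epidermal growth factor ligand Areg, which basophils can make in other settings, had 2 UMIs in the members. Igf1 (at least 4.80-fold lower), Pdgfa (at least 7.46-fold lower), Pdgfb (1 UMI in basophils), Grn (-4.44 ± 0.19) and Nampt (-1.48 ± 0.30) fell. Csf2 and Csf3, the genes of GM-CSF and G-CSF, had 0 UMIs in both classes.

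Proteases and granule proteins rose in 14 of 25 tested members and fell in 4. Without the 4 cells with mast cell proteases the count was 8 of 18 higher and 5 lower, since Cma1, Mcpt1, Mcpt2, Mcpt4, Tpsb2, Tpsab1 and Rab27b were no longer tested. Prss34, a protease of basophils known as mast cell protease 11, was at 422 and 237 CPM in basophils, against 1.26 and 0.574 CPM in the other immune cells (log2 fold change 8.71 ± 0.30 SE, adjusted p = 5.49e-07). Srgn, the proteoglycan that packs granule proteins, was at 10363 and 9139.9 CPM in basophils, against 1196 and 1287 CPM in the other immune cells (log2 fold change 3.28 ± 0.12 SE, adjusted p = 5.82e-07). Gzmb, a protease of killer cells used to propose the basophils, was at 2869 and 2827 CPM in basophils against 164 and 68.6 CPM in other immune cells, while Gzma had 0 UMIs (at least 30.0-fold lower). Prf1, the pore-forming protein that works with granzymes in killer cells, also had 0 UMIs in basophils and was not called in the comparison with all members. Cpa3 was at 1686 and 559.6 CPM in basophils against 35.2 and 0.862 CPM in other immune cells (6.70 ± 0.52), and at 312 and 346 CPM in basophils without the 4 cells (log2 fold change 5.01 ± 0.59, adjusted p = 5.10e-06). The protease inhibitor Serpinb1a (4.61 ± 0.20) and Stx3 (3.50 ± 0.28), a membrane protein of exocytosis, rose. Lysosomal cathepsins of macrophages fell, Ctsb to 35.9 and 46.6 CPM in basophils against 3354 and 3329 CPM in other immune cells and Ctss to 127 and 35.9 CPM in basophils against 7409.7 and 7562 CPM in other immune cells.

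Enzymes of small-molecule mediators rose in 7 of 14 tested members and fell in 5, and without the 4 cells in 5 of 13 and 5. Slc18a2, which loads histamine into granules, was at 81.7 and 133 CPM in basophils against 3.46 and 1.44 CPM in other immune cells (5.73 ± 0.48). Alox5, the first enzyme of leukotriene synthesis, was at 196 and 179 CPM in basophils against 13.2 and 10.6 CPM in other immune cells (4.28 ± 0.26), and its partner Alox5ap at 2729 and 2888 CPM in basophils, against 424 and 388 CPM in the other immune cells (log2 fold change 3.1 ± 0.13 SE, adjusted p = 1.20e-06). Ltc4s, which makes leukotriene C4, had 2 UMIs, both in the 4 cells, against 105 and 112 CPM in the other immune cells. Alox15 was at 71.9 and 64.6 CPM in basophils against 0.314 and 0.862 CPM in other immune cells (6.99 ± 0.66). Ptgs1, the constitutive enzyme of prostaglandin synthesis, had 0 UMIs and was at least 26.0-fold lower, and Hpgds, which makes prostaglandin D2, had 17 UMIs, all in the 4 cells. Ptgs2, the inducible enzyme, rose (at 105 and 39.5 CPM in basophils against 30.2 and 10.1 CPM in other immune cells), with 67.4% of its UMIs in 5 cells.

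Immediate early and NF-kB genes, which are switched on within minutes of stimulation and also by tissue dissociation, rose in 24 of 42 tested members and fell in 5, with a median log2 fold change of 1.46 against -0.21 over all genes. Ier3 was at 3958 and 3587 CPM in basophils, against 181 and 160.0 CPM in the other immune cells (log2 fold change 4.78 ± 0.13 SE, adjusted p = 1.74e-07). Egr1 was at 771 and 1087 CPM in basophils, against 68.8 and 85.3 CPM in the other immune cells (log2 fold change 3.89 ± 0.17 SE, adjusted p = 1.25e-06). Fosb (at 471 and 469.9 CPM in basophils against 64.4 and 53.4 CPM in other immune cells), Jun (at 1964 and 1944 CPM in basophils against 369 and 404 CPM in other immune cells) and Ier2 (at 833 and 1051 CPM in basophils against 149 and 161 CPM in other immune cells) rose too. Cish (at 81.7 and 122 CPM in basophils against 11.3 and 20.4 CPM in other immune cells) and Socs2 (at 55.6 and 104 CPM in basophils against 47.8 and 44.8 CPM in other immune cells), feedback inhibitors of cytokine signalling, and the kinase Pim1 (at 771 and 832 CPM in basophils against 229 and 267 CPM in other immune cells) rose. The call of Socs2 ended with DESeq2, after thinning and without the 7 largest members. The part of dissociation in these levels was not tested, since all classes of a library went through the same preparation.

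Of the immune suppression list 4 of 23 tested members rose and 10 fell. The checkpoint ligands Cd274 (at 242 and 222 CPM in basophils against 126 and 119 CPM in other immune cells; 1.23 ± 0.19) and Pdcd1lg2 (at 75.2 and 115 CPM in basophils against 18.9 and 14.1 CPM in other immune cells; 2.83 ± 0.35) rose, with the ectoenzyme Nt5e (2.37 ± 0.53) and the galectin Lgals1 (1.85 ± 0.15). Arg1, the arginase of suppressive macrophages, had 3 UMIs in basophils against 165 and 196 CPM in the other immune cells. Nos2 had 0 UMIs (at least 4.07-fold lower). MHC class II genes fell in 7 of 8 tested members, among them H2-Ab1 (at 16.3 and 17.9 CPM in basophils against 1599.5 and 1298 CPM in other immune cells) and Cd74 (at 169.9 and 204 CPM in basophils against 6073 and 5059 CPM in other immune cells). MHC class I genes fell in 1 of 9, H2-K1 (at 1526 and 1607 CPM in basophils against 4389 and 4174 CPM in other immune cells). Interferon response genes rose in 2 of 19, Isg15 and Irf1, and fell in 3. Cell cycle genes rose in 0 of 17 and fell in 2, Mki67 and Cdk1, each with 1 UMI in basophils. Of all genes 9.64% rose and 10.4% fell, so these small counts do not set the interferon and cell cycle lists apart. Ube2c held 42 UMIs in replicate 2 and 0 in replicate 1, 40 of them in a single cell.

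**Figure D3:**
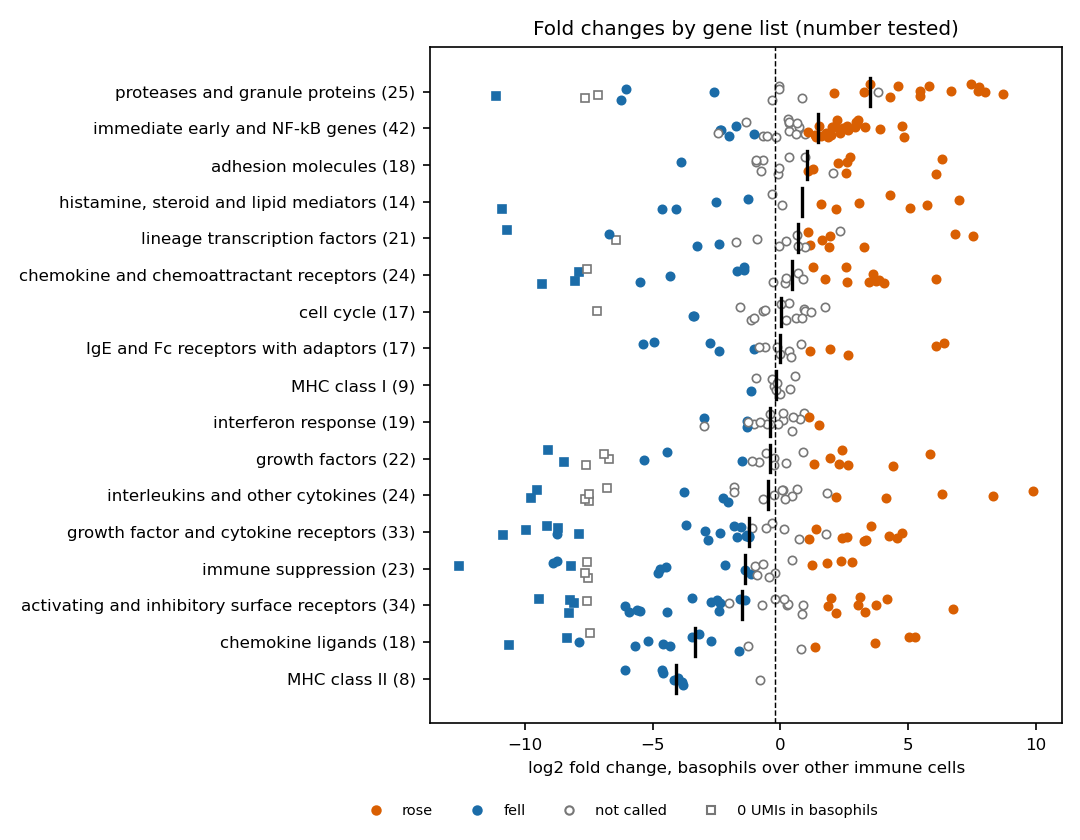
Log2 fold change (basophils over the other immune cells) of each tested gene in 17 lists, 1 row per list and 1 point per gene, with genes that rose or fell filled and the others open, and a tick at the median. Squares mark genes with 0 UMIs in basophils, whose values depend on the prior count. MHC class II and chemokine ligands have medians of -4.08 and -3.34. Proteases and granule proteins have a median of 3.50, against 0.57 over the 18 members tested without the 4 cells with mast cell proteases.

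Other immune cells are a mixture, so basophils were also set against 3 classes gated within them, in 1 fit of 10 sums. These were 372 cells with at least 20 C1q UMIs (C1q-high), 79 with at least 2 UMIs of the monocyte gene Ly6c2 (Ly6c2-positive) and 65 with Cd3e. The 158 remaining immune cells were not compared on their own. Among all other immune cells, 43 held at least 2 UMIs of Hdc and Cyp11a1 (median of 0 Mcpt8 UMIs), and 18 of these held Cd200r3 or Gata2. The other immune cells thus hold some cells with basophil genes. With those 43 left out, 940 genes rose and 996 fell against the other immune cells. The Ly6c2-positive class also held neutrophil markers, at summed levels of 32388 and 21687 CPM. Of 6223 genes tested, 765 rose (12.3%) and 697 fell (11.2%) in basophils against Ly6c2-positive cells. Against C1q-high cells 1121 rose (18%) and 1108 fell (17.8%), 35.8% in all, and against Cd3e-positive cells 812 rose (13%) and 614 fell (9.87%). These comparisons share the basophil sums, so their results are not independent.

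Il4, Il6, Hgf and Csf1 rose in each of the 3 comparisons. Il4, with 717 UMIs in basophils, had 0 in Ly6c2-positive, 10 in C1q-high and 1 in Cd3e-positive cells, where 0 UMIs in the Ly6c2-positive class allow up to 4.21 CPM. Hgf had 360 UMIs in basophils against 4, 59 and 2 in the same 3 classes. Csf1 had 331 UMIs in basophils against 3, 141 and 22. Csf1 and Hgf were also found in C1q-high cells, at 22.7 and 39.0 CPM and 14.1 and 12 CPM.

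The log2 fold change of Csf2rb was 2.90 ± 0.20 (adjusted p = 6.40e-07) against Ly6c2-positive, 3.43 ± 0.20 (adjusted p = 3.61e-08) against C1q-high and 5.62 ± 0.26 (adjusted p = 3.08e-08) against Cd3e-positive cells. Csf2rb stood at 1778 and 1862 CPM in basophils, against 282 and 305 CPM in Ly6c2-positive cells. Il1b stood at 1637 and 1525 CPM in basophils, 579 and 516 CPM in Ly6c2-positive and 168 and 339.9 CPM in C1q-high cells. Its log2 fold change was 1.81 ± 0.28 (adjusted p = 0.000347) against Ly6c2-positive and 2.94 ± 0.28 (adjusted p = 2.91e-06) against C1q-high cells. Ccl9 differed by 3.60 ± 0.34 (adjusted p = 7.36e-06) and 6.2 ± 0.38 (adjusted p = 5.86e-08) on the log2 scale from the same classes, and Ccl6 by 4.16 ± 0.22 (adjusted p = 8.16e-08) and 5.80 ± 0.23 (adjusted p = 3.47e-09). Over the chemokine list, 3 of 18 members rose and 2 fell against Ly6c2-positive cells, and 4 rose and 8 fell against C1q-high cells. The growth factor list had 5 of 16 members higher and 5 lower against Ly6c2-positive cells, and 6 higher and 5 lower against C1q-high cells.

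Outside the lists, the 12 genes with the largest rises included receptors, transporters and enzymes. Grm6, a glutamate receptor known from the retina, was at 242 and 126 CPM in basophils, against 1.89 and 0.862 CPM in the other immune cells (log2 fold change 7.31 ± 0.37 SE, adjusted p = 3.12e-06). Ptger3, a receptor for prostaglandin E2, was at 193 and 165 CPM in basophils against 1.89 and 1.44 CPM in other immune cells (7.01 ± 0.36). Car8, a carbonic anhydrase relative, was at 461 and 319 CPM in basophils against 5.34 and 2.58 CPM in other immune cells (6.93 ± 0.25), and Hs3st1, which modifies heparan sulfate, at 131 and 179 CPM in basophils against 1.89 and 1.44 CPM in other immune cells (6.80 ± 0.37). Sytl3, linked to granule secretion, was at 467 and 413 CPM in basophils against 8.17 and 3.45 CPM in other immune cells (6.58 ± 0.28). Cdh1, the adhesion protein E-cadherin, was at 343 and 319 CPM in basophils against 5.03 and 4.59 CPM in other immune cells (6.39 ± 0.24), the channel Aqp9 at 265 and 294 CPM in basophils against 4.09 and 4.02 CPM in other immune cells (6.39 ± 0.25) and the factor Klf5 at 163 and 161 CPM in basophils against 2.20 and 2.58 CPM in other immune cells (6.35 ± 0.35). The other four, Btnl9, Muc20, 4932438H23Rik and Csrp3, had between 20 and 52 UMIs in basophils and log2 fold changes between 6.48 and 7.05.

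The 12 largest falls all had 0 UMIs in basophils. They included genes of microglia and macrophages: Fcrls was at least 77.4-fold lower, the nucleotide receptor P2ry6 at least 39.5-fold lower, Gpr84 at least 38.7-fold lower, the lipoprotein gene Apoc1 at least 36.2-fold lower and the engulfment receptor Mertk at least 18.7-fold lower. Among the others were Cd180, Ch25h, Cryba4, Clec5a and the antibody light chain Igkc (at least 27.8-fold lower). Each bound sets the level in the other immune cells against the level that 3 UMIs over all members would give, and the order of such falls depends on the prior count. DESeq2 called 1 of these 12 genes, and 6 of the 35 listed or named genes that edgeR called lower with 0 UMIs in basophils, while it called 60 of the 85 that had UMIs and 114 of the 129 that rose.

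Members differed in how much of a signal they held. For these values each cell was thinned to 2000 UMIs, which left 128 cells, without the 4 cells with mast cell proteases and 6 shallower cells. Il4 was detected in 46 of the 128 cells (35.9%), and the 12 cells with most of it held 86.8% of its UMIs. In C1q-high cells thinned the same way (median of 10657 UMIs before thinning), Il4 was detected in 0.274% of cells, Prss34 in 0.274% and Il6 in 0.548%. The shares of Il4, Prss34 and Il6 in basophils stood far above these. Osm, used to propose the cells, was detected in 3.56% of C1q-high cells, which is no check. In basophils the values for Prss34 were 26 cells and 87.3%, for Gzmb 64 cells and 65.5%, for Il6 59 cells and 58.1%, and for Osm 99 cells and 51.3%. The gate gene Hdc, for comparison, was detected in 124 cells, with 24.3% of its UMIs in 12 cells. Hgf was spread almost as evenly (92 cells, 29.7%), as were Ccl6 (121 cells, 24.5%) and Cd200r3 (112 cells, 22.3%). Il4 and Il6 were found together in 21 cells, Il4 alone in 24, Il6 without Il4 in 38 and neither of them nor Il13 in 43. Il13 was found in 6 cells, 4 of them with Il4.

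**Figure D4:**
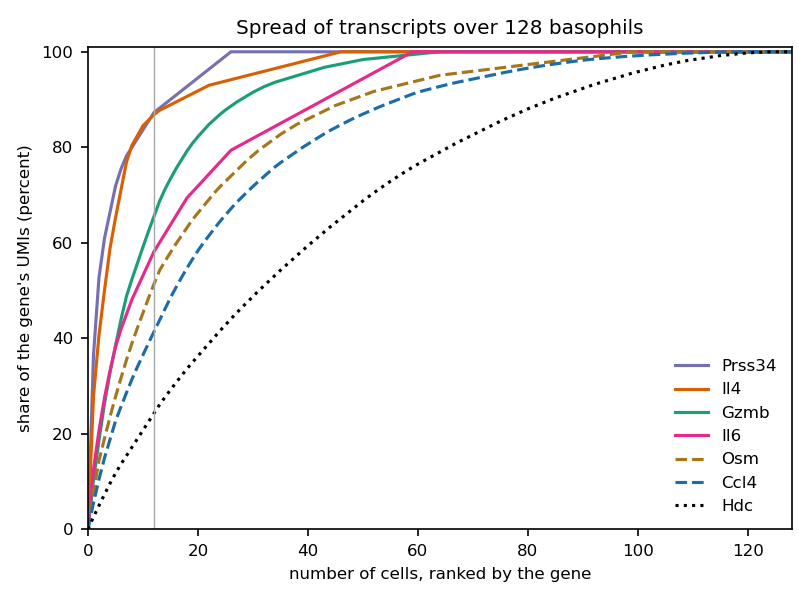
Cumulative share of a gene's UMIs (vertical, percent) over 128 members thinned to 2000 UMIs each and ranked by that gene (horizontal, number of cells), for 7 genes. The curves of Il4 and Prss34 reach 86.8% and 87.3% by 12 cells, that of Hdc 24.3%.

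The 46 cells with Il4 had a mean of 65.8 UMIs of Ccl4 per 2000, at 60.0 in replicate 1 and 73.4 in replicate 2, against 23.9 in the 82 cells without (29.1 and 18.4). Means of Ccl3 were 46.0 UMIs in cells with Il4 against 17.1 in cells without, of Osm 8.96 with Il4 against 3.65 without and of Csf1 2.13 with Il4 against 0.866 without. Ccl6 was at 17.3 UMIs in cells with Il4 against 20.5 in cells without, and Ccl9 at 14.8 with Il4 against 12.3 without. Cyp11a1 was at 4.63 UMIs in cells with Il4 against 4.40 in cells without, and Gata2 at 2.17 with Il4 against 2.54 without. Across the 128 cells, Spearman's rho was 0.62 between Osm and Ccl4 (0.57 and 0.67 within replicates 1 and 2), 0.60 between Ccl3 and Ccl4 (0.63 and 0.53) and -0.44 between Cpa3 and Ifitm1 (-0.52 and -0.36). Cells of a library share their preparation and are not replicates, so these values are descriptions. The 26 cells with Prss34 held a mean of 11.6 UMIs of the gate gene Mcpt8, against 5.89 in the 102 without.

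The genes that could signal to and from basophils were then listed over all classes. Among their known growth and activation signals, Il3 had 0 UMIs in any of the classes compared, and Csf2 and Csf3 were found in Nras-high cells only among these classes. Nras-high cells are the 1981 barcodes at or above 1000 CPM of Nras, where glioma markers summed to 173 and 175 CPM. They held 461 UMIs of Csf2 (4.13 and 4.84 CPM), 851 of Csf3 (9.06 and 7.44 CPM), 175 of Il33 (1.16 and 2.27 CPM) and 232 of Tslp (2.01 and 2.51 CPM). Nras-high cells held 102904618 UMIs in all, against 584759 in basophils. A count of 0 allows up to 5.13 CPM in basophils, 5.28 in Cd3e-positive, 4.21 in Ly6c2-positive and 0.661 in C1q-high cells. So 0 UMIs of Csf2 in basophils, Cd3e-positive and Ly6c2-positive cells do not show a level below that of Nras-high cells. Il33 also had 9 UMIs in C1q-high cells (4.08 and 0 CPM) and 3 in Ly6c2-positive cells (0 and 7.04 CPM), and Tslp had 1 in Ly6c2-positive cells (3.49 and 0 CPM). Il18 was at 67.1 and 57.0 CPM in C1q-high cells, 45.3 and 68.0 CPM in Ly6c2-positive cells and 4.11 and 4.37 CPM in Nras-high cells. Kitl was at 31.5 and 35.5 CPM in Nras-high cells.

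Receptors of the signals that basophils held lay in different classes. Csf1r was at 1225 and 1336 CPM in C1q-high cells and a mean of 0.722 CPM in Nras-high cells. Il4ra was at 269 and 243 CPM in C1q-high cells, 132 and 141 CPM in Ly6c2-positive and 11.5 and 11.1 CPM in Nras-high cells. Osmr, a receptor chain for oncostatin M, was at 9.42 and 10.7 CPM in Nras-high cells (1034 UMIs), with 2 UMIs in the other immune cells. Met, the receptor of Hgf, was at 11.4 and 10.7 CPM in Nras-high cells, 27.9 and 14.1 CPM in Ly6c2-positive cells and 16.3 and 17.9 CPM in basophils themselves. Ccr1, a receptor for Ccl3, was at 409 and 456 CPM in basophils and 33.6 and 58.7 CPM in C1q-high cells. In Ly6c2-positive cells Ccr1 was at 237 and 298 CPM, and in the remaining immune cells at 230 and 157 CPM. Against Ly6c2-positive cells it was not called (log2 fold change 0.97 ± 0.29 SE). These levels say where RNA of a ligand or receptor was found, not that a signal passed.

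**Figure D5:**
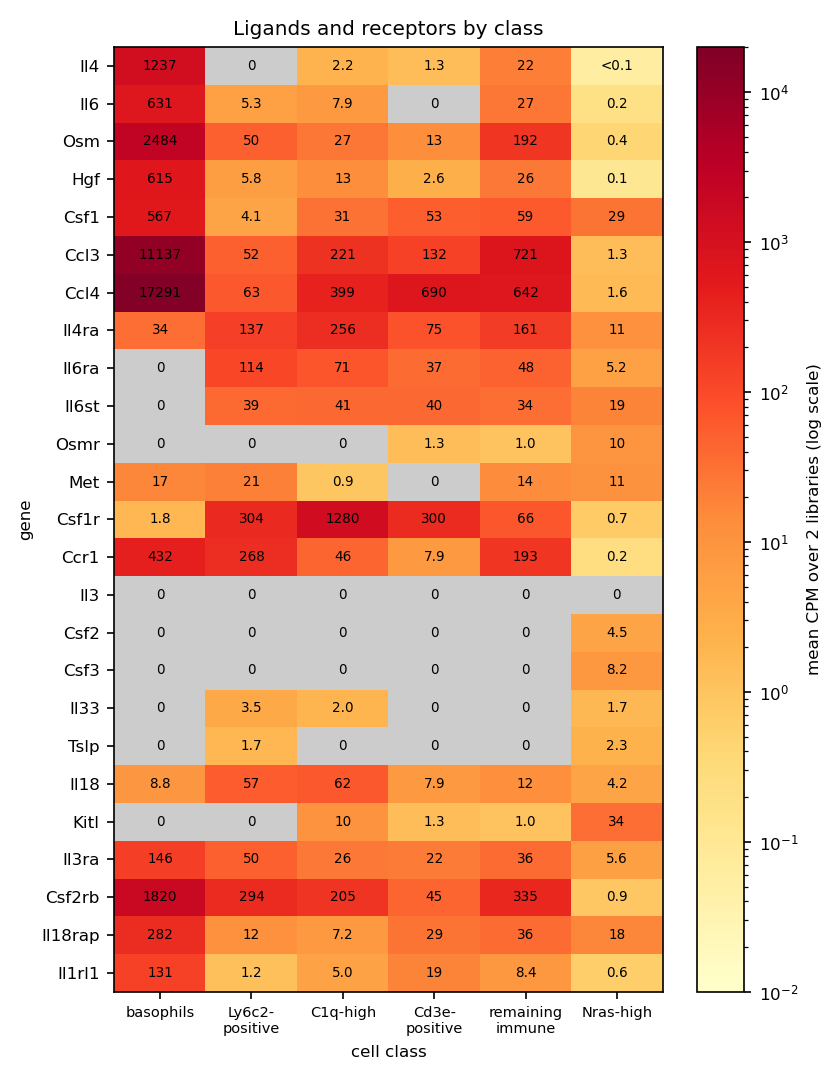
Mean CPM over replicates 1 and 2 (colour, log scale; grey for 0 UMIs) of ligands and receptors, in rows, in basophils and in the other 5 classes, in columns. Il4, Il6, Hgf and Osm have their highest level in basophils and Csf1r and Il4ra in C1q-high cells, while Osmr reaches 10 CPM in Nras-high cells alone of these classes.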

How the data were processed

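The deposited files hold raw UMI counts per gene and barcode for 2 libraries; per the labels the authors made them with Cell Ranger 3.1 (the matrix header names software version 3.0.0) on mm10, and the annotation is not given in the sources used here. Per the labels runs were also scaled to equal depth and combined, but the files hold whole, unequal totals per library. CPM, UMI sums and shares were computed here from these counts, as deposited. Barcodes were gated as described in the report; scrublet calls (scanpy 1.11.5) were used as an alternative and no doublet was removed. Sums per library and class were tested in edgeR 4.0.16 (TMM, filterByExpr, quasi-likelihood F-test, Benjamini-Hochberg adjustment, library as block because both sums come from the same library), with DESeq2 1.42.0 as an alternative. The fit was tested on simulated data. The members, markers and gene lists were chosen with earlier results of these data known. Genes in the lists could be named; outside them the 12 largest rises (at least 10 UMIs in each basophil sum) and the 12 largest falls (at least 10 UMIs in each sum of the other immune cells) were. The library totals ranged from 58915133 to 63001350 UMIs. Intervals are exact Clopper-Pearson, and floors are 3 UMIs; both cover counting error only. Genome positions are GRCm38 (GENCODE); promoters are RefSeq's. The gene IDs and symbols are those of the files. Some genes that these rules select are not reported here.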

Additional observations from a re-analysis of the deposited data

How the results depend on the processing

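With the library not used as a block, 1009 genes rose and 1282 fell in basophils against the other immune cells, so pairing sums by library did not move either count by over 1.5 times. The number that fell was 404 with DESeq2, 624 against the mean of the 4 gated classes and 1818 without the 7 members over 3 times the median UMIs. After thinning to 2000 UMIs, which leaves fewer genes to test, 861 genes differed from Ly6c2-positive cells, 1263 from C1q-high and 835 from Cd3e-positive cells, against 1462, 2229 and 1426 before. The number that rose stayed within 1.5 times of 900 under each alternative. The share of basophils was 18.1% with at least 1 Malat1 UMI asked, 13.2% with the stricter gate (3 UMIs of Mcpt8 and 5 of Hdc and Cyp11a1) and 6.93% with a Ptprc UMI asked of the members; it ranged from 16.3% to 17.6% when each library was left out. Counts of calls without a library could not be had, since 1 library leaves no residual degrees of freedom.

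Of 173 genes named and tested, 115 had the same direction and side of the threshold under every alternative run. Hpgds reversed to 0.60 (log2, adjusted p = 0.509 by edgeR) against the mean of the 4 classes, and Mcpt4 to -0.99 (adjusted p = 0.639) with the stricter gate. Kit reversed to -6.79 (adjusted p = 0.166) without the 4 cells with mast cell proteases; its plain log2 ratio was -0.20 without replicate 1 and 2.89 without replicate 2. The alternatives without those 4 cells, without the 7 largest members, without other immune cells that hold Hdc or Cyp11a1, and with Ptprc asked of members were chosen after seeing the data. What moved these values was not tested beyond the settings themselves. At 584759 UMIs over all members, genes under 5.13 CPM cannot be told from absent ones, and 2 libraries that may be technical set the spread behind each p.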
